A study of Mus musculus with 8 samples.

Results

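The genes of the proteasome were followed in mouse liver RNA across 4 groups that differed in genotype and in treatment with an agonist of the glucagon receptor. Members were the rows of the authors' expression tables whose gene symbol begins with Psma, Psmb, Psmc, Psmd, Psme, Psmf or Psmg followed by a number, and whose level reached at least 1 FPKM (sequenced fragments counted per length of transcript and per size of library) in any group. The symbols matched 50 of 26682 loci, and 47 of them passed, which carry 46 symbols because Psmg3 is listed as 2 loci of the same span. They lie on 16 chromosomes. The symbol pattern takes in assembly chaperones, activators and an inhibitor beside the subunits proper, and each class is described apart. Of the 3 loci under the minimum, Psma8 encodes an alpha subunit of testis and reached 0.591 FPKM, Psmb11 encodes the catalytic subunit of thymic epithelium and reached 0.0263 FPKM, and Psmc3ip, a recombination factor and no proteasome subunit, reached 0.877 FPKM. The minor Psmg3 locus was the member just inside the minimum, at 1.02 FPKM, and the other 46 members exceeded 5 FPKM in at least 1 group.

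The groups were KO mice given IUB288, KO mice given vehicle, WT mice given IUB288 and WT mice given vehicle, with 2 mice each and 8 mice in all. IUB288 is an agonist of the glucagon receptor, which raises cyclic AMP in hepatocytes. The KO label stands beside a design text that names a floxed Fxr gene (Nr1h4, the bile acid receptor), while the sources used here name neither the recombinase nor the cells in which it acts. All mice were on a C57Bl/6J background and had fasted for 2 h, and the diets mentioned, high-fat and chow, are not tied to single mice. The authors' deposited tables hold 1 pooled FPKM value per group and locus, so values per mouse and sequencing depth are unknown here, and values after ± are standard errors on the log2 scale that the authors' test statistics imply. Nr1h4 stood at 25.7 FPKM in KO IUB288 livers and 37.4 FPKM in WT IUB288 livers, q = 1.00 by the authors' deposited table, so the locus level does not by itself show the deletion. Each of the 3 tables was scaled on its own, and the same group read 1.05 (KO IUB288) or 1.08 (WT IUB288) times as high in its treatment table as in the genotype table. The FPKM values are per length and can be compared between genes, and the tests stay within a table.

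The 26S proteasome degrades proteins tagged with ubiquitin. Its 20S core is a barrel of stacked rings, the outer ones built of alpha subunits that gate the entrance and the inner ones of beta subunits, of which Psmb5, Psmb6 and Psmb7 carry the chymotrypsin-like, caspase-like and trypsin-like sites. Interferon induces Psmb8, Psmb9 and Psmb10, which replace Psmb5, Psmb6 and Psmb7 in newly built cores and form the immunoproteasome, known for making peptides for MHC class I. The 19S cap recognises, unfolds and deubiquitinates the substrate, and in hepatocytes glucagon and cyclic AMP are known to raise proteasome activity through phosphorylation of the lid subunit Psmd11 (Rpn6), a step that RNA levels do not measure.

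Among the 47 members, a single one passed the authors' test in any comparison. Psmb9, the interferon-inducible counterpart of Psmb6, was lower with IUB288 in both genotypes. It stood at 7.73 FPKM in KO IUB288 livers and 18.6 FPKM in KO Vehicle livers, and at 8.54 FPKM in WT IUB288 livers and 15.2 FPKM in WT Vehicle livers. The value with IUB288 was thus below that with vehicle within each genotype, as it was for 6 of the 46 members above 5 FPKM, Psmb9 included. In KO mice Psmb9 fell by 1.26 ± 0.46 on the log2 scale, to 0.417 times the vehicle level, and the authors' deposited table lists p = 2e-04 and q = 0.00628. In WT mice the log2 difference was -0.83 ± 0.48, where the authors' deposited table lists p = 0.0155 and q = 0.133, and it did not pass. The IUB288 effect in KO minus that in WT was -0.43 ± 0.67, with a 95% interval from -1.74 to 0.87 and an adjusted p of 1.00 over all loci (z test on the implied errors), so a difference between the genotypes was not shown. The call in KO does not survive normal p-values computed from the authors' test statistics, where Psmb9 has an adjusted p of 0.181. In whole liver, fewer cells that express a gene and less RNA per cell cannot be told apart.

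The other immunoproteasome subunits did not share the direction of Psmb9. Psmb8, the counterpart of Psmb5, stood at 19.9 FPKM in KO IUB288 livers and 19.05 FPKM in KO Vehicle livers, and at 25.1 FPKM in WT IUB288 livers and 16.7 FPKM in WT Vehicle livers. Its log2 differences, 0.06 ± 0.38 in KO and 0.59 ± 0.42 in WT, had q-values of 0.961 and 0.278 in the authors' deposited tables. Psmb10, the counterpart of Psmb7, stood at 19.1 FPKM in KO IUB288 livers and 15.0 FPKM in KO Vehicle livers, and at 25.9 FPKM in WT IUB288 livers and 18.1 FPKM in WT Vehicle livers. Its log2 differences were 0.35 ± 0.38 in KO and 0.51 ± 0.41 in WT, with q-values of 0.633 and 0.362 in the authors' deposited tables. Neither gene passed in any comparison, and their values with IUB288 were above those with vehicle in both genotypes.

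Each inducible subunit was also set against its constitutive counterpart, which reuses the values above. With IUB288 Psmb6 itself stood at 1.30 times (KO) and 1.53 times (WT) its vehicle level, which lowers its ratio with Psmb9 further. The FPKM of Psmb9 was 6.61% of that of Psmb6 in KO IUB288 livers and 20.6% in KO Vehicle livers. It was 5.75% in WT IUB288 livers and 15.7% in WT Vehicle livers. Psmb8 held 21.9% of the level of Psmb5 in KO IUB288 livers, 20.7% in KO Vehicle livers, 21.9% in WT IUB288 livers and 19.2% in WT Vehicle livers, a narrow range. Psmb10 was 16.7% of Psmb7 in KO IUB288 livers, 13.8% in KO Vehicle livers, 21.7% in WT IUB288 livers and 17.1% in WT Vehicle livers. With vehicle the 3 inducible subunits were thus at similar levels, with Psmb8 at 1.03 times (KO) and 1.10 times (WT) the FPKM of Psmb9. With IUB288, Psmb8 was at 2.58 times the FPKM of Psmb9 in KO and 2.94 times in WT. These ratios carry no test, since they combine pooled values of separate genes.

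**Figure D1:**
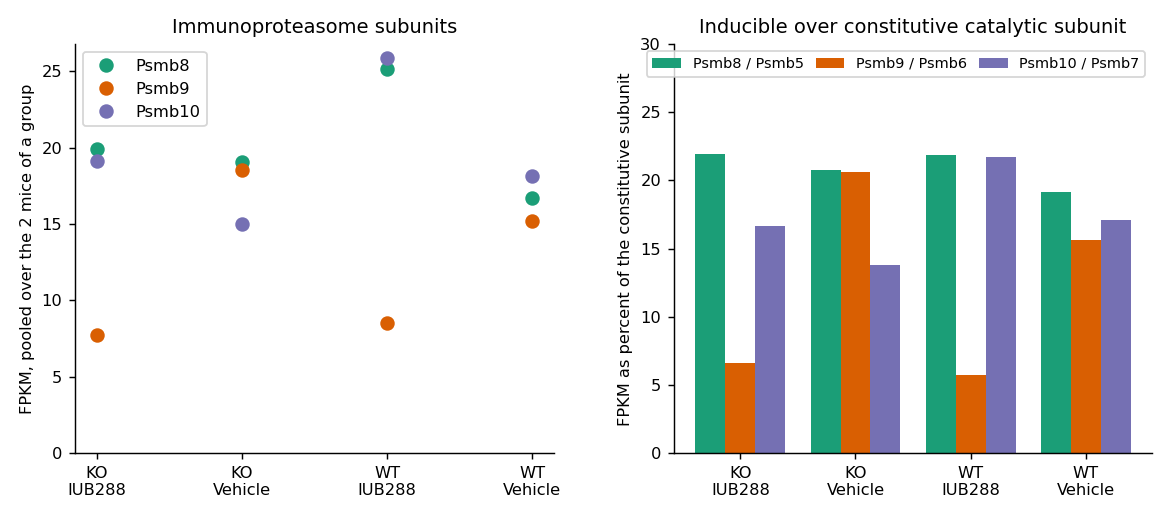
Left, pooled FPKM of Psmb8, Psmb9 and Psmb10 in the 4 groups of 2 mice, 1 point per group; right, the FPKM of each inducible subunit as percent of the constitutive subunit it replaces. Psmb9 lies at 7.73 and 8.54 FPKM in the IUB288 groups, apart from the other inducible subunits, and at 18.6 and 15.2 FPKM in the vehicle groups, close to them.

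Psmb9 and Psmb8 lie in the MHC class II region of mouse chromosome 17 beside the peptide transporter genes Tap1 and Tap2. In mm10, Psmb9 runs from 34182099 to 34187330 on the minus strand and overlaps no other annotated gene, and Psmb8 runs from 34197739 to 34201454 on the plus strand with the antisense gene Gm20496 across it. Psmb10 lies apart, on chromosome 8 from 105935728 to 105938392 on the minus strand, with the antisense gene Gm16156 across it. The files do not state if counting was stranded, so reads of Psmb8 and Psmb10 cannot be told apart from those of their antisense partners. Psmb9 and Tap1 are transcribed away from each other from starts 226 bases apart, and their promoter windows share 275 bases. Tap1, which loads peptides into the endoplasmic reticulum, stood at 6.84 FPKM in KO IUB288 livers and 10.3 FPKM in KO Vehicle livers, and at 5.96 FPKM in WT IUB288 livers and 9.98 FPKM in WT Vehicle livers. The log2 difference of Tap1 was -0.59 ± 0.37 in KO (q = 0.218) and -0.74 ± 0.41 in WT (q = 0.106) in the authors' deposited tables, on the same side as Psmb9 and not past the threshold. Tap2 stood at 8.64 FPKM in KO IUB288 livers and 10.7 FPKM in KO Vehicle livers, and at 8.97 FPKM in WT IUB288 livers and 11.1 FPKM in WT Vehicle livers, also without passing.

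The promoters of the immunoproteasome genes and of Psmb6, the constitutive counterpart of Psmb9, are shown because Psmb9 went apart from the other inducible genes. Each is the RefSeq window of the GRCm38.p6 build, 300 bases read 5′ to 3′ on the gene's own strand, with 250 bases before the start and 50 after it. They lie at chr17:34187281-34187580 (Psmb9, minus strand), chr17:34197945-34198244 (Psmb8, plus strand), chr8:105938343-105938642 (Psmb10, minus strand) and chr11:70525107-70525406 (Psmb6, plus strand). Capitals mark matches on either strand to the motifs described after them.
Psmb9: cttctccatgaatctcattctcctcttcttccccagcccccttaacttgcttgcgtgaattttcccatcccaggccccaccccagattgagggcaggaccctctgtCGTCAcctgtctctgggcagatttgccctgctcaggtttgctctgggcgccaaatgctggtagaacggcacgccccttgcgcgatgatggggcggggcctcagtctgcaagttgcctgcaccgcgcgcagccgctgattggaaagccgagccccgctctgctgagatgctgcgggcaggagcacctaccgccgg
Psmb8: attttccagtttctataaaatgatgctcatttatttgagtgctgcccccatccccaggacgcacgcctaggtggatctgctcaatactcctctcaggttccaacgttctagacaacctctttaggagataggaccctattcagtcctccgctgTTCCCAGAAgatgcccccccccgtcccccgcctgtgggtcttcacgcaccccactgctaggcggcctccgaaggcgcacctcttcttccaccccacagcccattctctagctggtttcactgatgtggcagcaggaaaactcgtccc
Psmb10: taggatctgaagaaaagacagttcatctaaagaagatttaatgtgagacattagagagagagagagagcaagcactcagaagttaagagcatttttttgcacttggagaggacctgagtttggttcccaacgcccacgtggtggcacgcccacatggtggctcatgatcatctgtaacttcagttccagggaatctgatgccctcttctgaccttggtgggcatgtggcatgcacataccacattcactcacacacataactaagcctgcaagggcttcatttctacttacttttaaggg
Psmb6: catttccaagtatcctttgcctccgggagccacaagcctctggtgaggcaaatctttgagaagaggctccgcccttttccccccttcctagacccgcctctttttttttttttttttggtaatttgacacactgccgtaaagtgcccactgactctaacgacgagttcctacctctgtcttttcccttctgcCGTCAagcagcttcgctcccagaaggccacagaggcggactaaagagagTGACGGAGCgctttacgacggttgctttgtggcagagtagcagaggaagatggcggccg

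Of the 46 member symbols, 39 had a RefSeq promoter, giving 42 windows. The cyclic AMP response element has the core TGACGTCA, and its shorter form TGACG was searched as well, each on both strands. The full core was in 0 of the 42 member windows and in 1.79% of all 32851 windows. The short form was in 20 member windows (47.6%), those of Psmb9, Psmb6 and Psmb5 among them, against 20.8% of all windows. Both Psme2 windows are included and overlap, so the same site was counted in each. Member windows had a median GC content of 58.2%, against 52.7% over all windows, and the part of base composition in that share was not tested. The antioxidant response element bound by NFE2L1 and NFE2L2 was searched as TGACNNNGC, which can overlap TGACG, and was in 6 member windows (14.3%), those of Psmb5, Psmb6, Psmc6, Psmd12, Psmd9 and Psme4, against 12.4% of all windows. An interferon-type motif, GAAA and GAAA set 2 bases apart, was in 5 member windows (11.9%), those of Psmb3, Psmd4, Psmd9, Psme1 and Psmg4, against 3.44% of all windows. A shorter interferon-type motif, TTCNNNGAA, was in 3 member windows (7.14%), those of Psmb8, Psmd2 and Psmg1, against 8.30% of all windows. The Psmb9 window held the letters of neither interferon-type motif. A match or its absence describes these letters in this window and no more.

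Genes of interferon-inducible antigen processing other than the proteasome were read beside Psmb9, from a list of 10 that holds the transporters, MHC class I chains and the factors Nlrc5, Irf1 and Irf8. None passed in any comparison, where 5.51% of all tested loci did in KO, 7.37% in WT and 0.539% between genotypes. At an unadjusted p under 0.05 there was 1 in KO, 1 in WT and 0 between genotypes. The share of all tested loci there was 14.6%, 17.4% and 3.95%, so with 10 genes these counts do not stand out. In KO mice 8 of the 10 were lower with IUB288 and 2 higher, with a median log2 difference of -0.28. In WT mice the counts were the same with a median of -0.14. Of all tested loci, 49.8% were higher in KO and 52.4% in WT, with medians of -0.0022 and 0.03. The class I light chain B2m stood at 2033 FPKM in KO IUB288 livers and 2217 FPKM in KO Vehicle livers, and at 2411 FPKM in WT IUB288 livers and 2529 FPKM in WT Vehicle livers.

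Markers of leukocytes, which express immunoproteasome genes, also had lower sums with IUB288. Over 9 markers the summed level was 5.19 FPKM in KO IUB288 livers and 6.34 FPKM in KO Vehicle livers, and 5.70 FPKM in WT IUB288 livers and 7.31 FPKM in WT Vehicle livers. None of the 9 was listed at 0, and none passed or had an unadjusted p under 0.05 in the authors' deposited tables. Kupffer cell markers, 7 in number, summed to 55.1 FPKM in KO IUB288 livers and 65.7 FPKM in KO Vehicle livers, and to 140.0 FPKM in WT IUB288 livers and 88.8 FPKM in WT Vehicle livers. They were thus on the side of Psmb9 in KO and on the other side in WT, where Marco passed. Endothelial markers, 5 in number, summed to 41.4 FPKM in KO IUB288 livers and 52.0 FPKM in KO Vehicle livers, and to 54.2 FPKM in WT IUB288 livers and 63.1 FPKM in WT Vehicle livers, with Lyve1 lower and past the threshold in WT. Stellate cell markers, also 5, summed to 10.4 FPKM in KO IUB288 livers and 13.6 FPKM in KO Vehicle livers, and to 8.11 FPKM in WT IUB288 livers and 22.6 FPKM in WT Vehicle livers, with Col3a1 lower and past the threshold in both, and Col1a1, Lrat and Reln in WT. The part of these cells in the Psmb9 difference was not tested.

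Over the whole set, IUB288 gave a single call. In KO mice 1 of 47 members was called lower, Psmb9, and 0 higher, where 5.51% of all 13822 tested loci were called (2.37% lower and 3.13% higher). Psmb9 was also the only member with an unadjusted p under 0.05 in KO, and under normal p-values 0 members were called. In WT mice 0 of 47 members were called, where 7.37% of 15164 tested loci were (3.4% lower and 3.96% higher). There 6 members had an unadjusted p under 0.05 in the authors' deposited table, Psmb9, Psme1, Psmg4, Psmb6, Psme2 and Psmb8, or 12.8% of members against 17.4% of tested loci, and normal p-values called 0 as well. Most member differences were smaller than their own errors, whose median was 0.36 in KO and 0.40 in WT. Exceptions included Psmb9 in KO (-1.26 ± 0.46), and in WT Psmb9 (-0.83 ± 0.48), Psmg4 (0.88 ± 0.54) and Psme1 (0.74 ± 0.43), in the authors' deposited tables. Among loci of 5 to 150 FPKM, the smallest log2 difference that was called measured 0.73 in KO and 0.81 in WT.

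In KO mice 27 members stood above 0 and 20 below with IUB288, with a median log2 difference of 0.06. In WT mice 39 stood above 0 and 8 below, with a median of 0.21. The summed FPKM of all members was 2536 in KO IUB288 livers and 2409 in KO Vehicle livers, a ratio of 1.05, and 2780.2 in WT IUB288 livers and 2272 in WT Vehicle livers, a ratio of 1.22. Well expressed loci in general stood on the same side. The median log2 difference of all loci with at least 10 FPKM was 0.080 in KO and 0.22 in WT. Centred on it, the medians of all 47 members, those under 10 FPKM included, became -0.016 in KO and -0.0061 in WT. The 44 members that reached 10 FPKM had medians of 0.055 in KO and 0.27 in WT. On like sets the members were thus below these loci in KO and above them in WT. By level, the 22 members of 60 to 150 FPKM had a median of 0.28 in WT, against 0.31 for all loci of that range, and the 16 members of 20 to 60 FPKM had 0.25 against 0.22. Within these 2 ranges the members' medians in WT were therefore close to those of loci of their own level. In KO they were lower than those of such loci. The 20 members of 60 to 150 FPKM had a median of 0.081 in KO, against 0.14 for all loci of that range. The 15 members of 20 to 60 FPKM had -0.026 against 0.083. Over the wider range of 5 to 150 FPKM, 46 members had a median of 0.24 in WT, against 0.13 for all loci. Without the minor Psmg3 locus, the 46 members above 5 FPKM had an SD of log2 differences across genes of 0.29 in both genotypes, against 0.65 in KO and 0.73 in WT for loci of 5 to 150 FPKM. With that locus the SD over 47 members was 0.76 in KO and 1.06 in WT, against 0.83 and 0.97 over all tested loci.

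**Figure D2:**
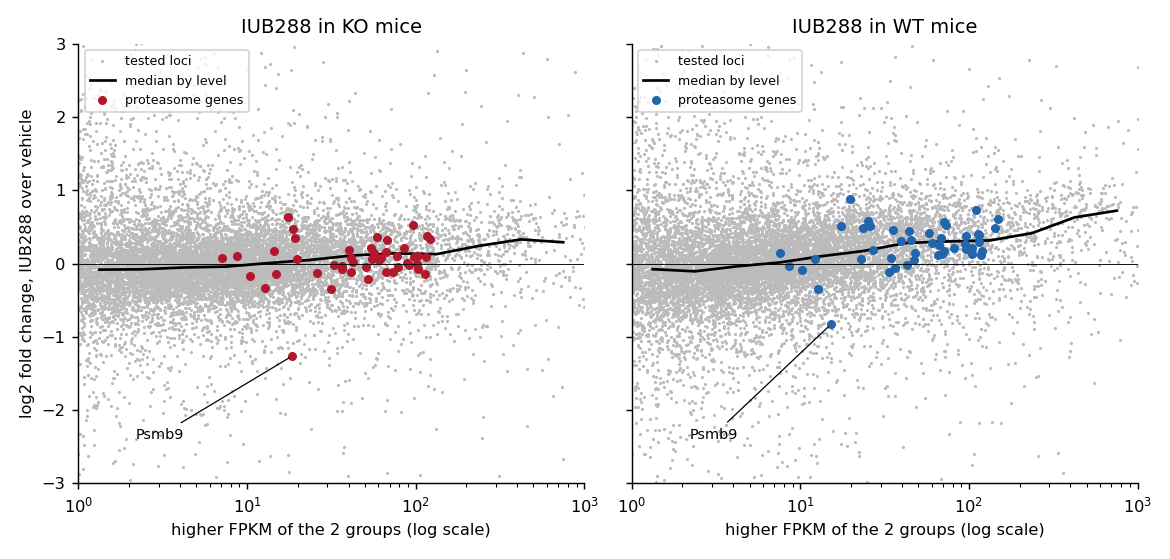
Log2 fold change of IUB288 over vehicle (vertical) against the higher FPKM of both groups (horizontal, log scale) for tested loci in KO (left) and WT (right), with the 46 members above 5 FPKM in colour and the median of all loci by level as a line. The line climbs with level between 5 and 150 FPKM in both genotypes. Members of 20 to 150 FPKM lie on both sides of it in WT and mostly below it in KO. Psmb9 lies below the line in both genotypes at -1.26 (KO) and -0.83 (WT).

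The treatment differences of single members were alike in direction in many cases, though the 2 treatment tables hold different mice. Of the 46 members above 5 FPKM, 26 were higher with IUB288 in both tables, 6 lower in both, 13 lower in KO and higher in WT, and 1 higher in KO and lower in WT. The 6 lower in both were Psmb9, Psmc6, Psmd1, Psmd6, Psmg2 and the main Psmg3 locus. Across these 46 genes, which share libraries and are not replicates, Spearman's rho between the KO and the WT differences was 0.73, and over 6118 loci of 5 to 150 FPKM it was 0.78.

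**Figure D3:**
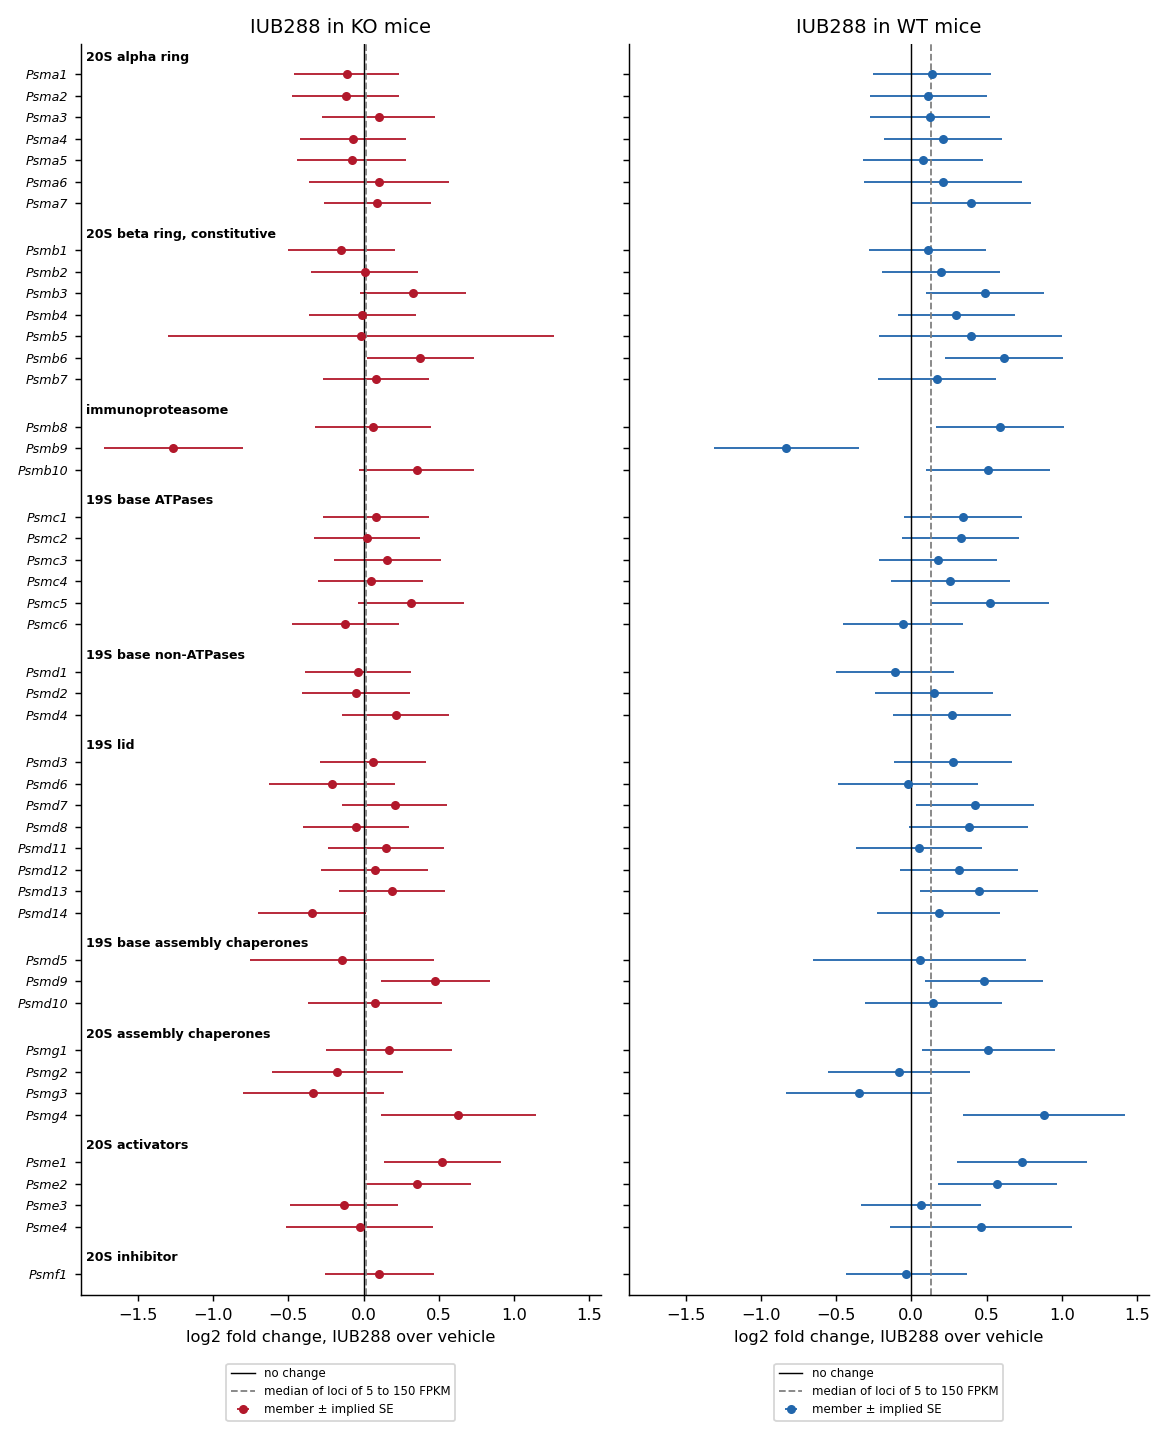
Log2 fold change of IUB288 over vehicle for the 46 members above 5 FPKM, by subcomplex, in KO (left) and WT (right), with implied standard errors as bars and the median of loci of 5 to 150 FPKM as a dashed line. Psmb9 stands alone at -1.26 in KO, and most bars of the other members cross 0.

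The alpha ring had a summed ratio of 1.00 in KO and 1.15 in WT. Its 7 genes had log2 differences from -0.12 (Psma2) to 0.10 (Psma6) in KO and from 0.08 (Psma5) to 0.40 (Psma7) in WT. Psma2 stood at 61.4 FPKM in KO IUB288 livers and 66.6 FPKM in KO Vehicle livers, and Psma6 at 77.3 FPKM in KO IUB288 livers and 71.9 FPKM in KO Vehicle livers. Summed over the ring, the level was 539.7 FPKM in KO IUB288 livers and 539 FPKM in KO Vehicle livers, and 572 FPKM in WT IUB288 livers and 498 FPKM in WT Vehicle livers. Psma7, the highest of the ring in WT IUB288 livers, stood at 113 FPKM there and 85.6 FPKM in WT Vehicle livers, a log2 difference of 0.40 ± 0.40 for which the authors' deposited table lists q = 0.495. The gate of the core thus showed no member past the threshold in either genotype.

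The 7 constitutive beta genes were all above 0 in WT and split 4 to 3 in KO. Psmb6, the caspase-like subunit, was the upper end of the ring in both genotypes. It stood at 117 FPKM in KO IUB288 livers and 89.9 FPKM in KO Vehicle livers, and at 149 FPKM in WT IUB288 livers and 97.1 FPKM in WT Vehicle livers. Its log2 differences, 0.38 ± 0.35 in KO (q = 0.535) and 0.62 ± 0.39 in WT (q = 0.186) in the authors' deposited tables, did not pass. Psmb5, the chymotrypsin-like subunit and the target of bortezomib, stood at 90.8 FPKM in KO IUB288 livers and 91.8 FPKM in KO Vehicle livers, and at 115 FPKM in WT IUB288 livers and 87.2 FPKM in WT Vehicle livers. Its implied error was wide, with log2 differences of -0.02 ± 1.28 in KO and 0.40 ± 0.61 in WT (q-values 0.994 and 0.612 in the authors' deposited tables). Psmb7, the trypsin-like subunit, stood at 115 FPKM in KO IUB288 livers and 109 FPKM in KO Vehicle livers, and at 119 FPKM in WT IUB288 livers and 106 FPKM in WT Vehicle livers. Psmb1, a beta subunit without a catalytic site, was the lower end, with log2 differences of -0.15 ± 0.36 in KO and 0.11 ± 0.39 in WT in the authors' deposited tables. The summed ring stood at 737 FPKM in KO IUB288 livers and 691 FPKM in KO Vehicle livers, and at 854 FPKM in WT IUB288 livers and 678 FPKM in WT Vehicle livers.

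The 6 ATPases that form the unfolding ring of the 19S base went from -0.12 (Psmc6) to 0.32 (Psmc5) in KO and from -0.06 (Psmc6) to 0.52 (Psmc5) in WT, on the log2 scale. Psmc5 stood at 67.3 FPKM in KO IUB288 livers and 54.0 FPKM in KO Vehicle livers, and at 73.4 FPKM in WT IUB288 livers and 51.0 FPKM in WT Vehicle livers, with q-values of 0.638 in KO and 0.313 in WT in the authors' deposited tables. Psmc6 stood at 37.9 FPKM in KO IUB288 livers and 41.2 FPKM in KO Vehicle livers, and at 35.0 FPKM in WT IUB288 livers and 36.4 FPKM in WT Vehicle livers. The ATPases thus kept the same genes at both ends in the 2 genotypes. Of the other base subunits, the scaffolds Psmd1 and Psmd2 had log2 differences of -0.04 and -0.05 in KO and -0.11 and 0.15 in WT. Psmd4, a ubiquitin receptor, had 0.21 ± 0.35 in KO and 0.27 ± 0.39 in WT in the authors' deposited tables.

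In the lid, Psmd14, the metalloprotease that removes ubiquitin from the substrate, was the lowest of the 8 genes in KO. It stood at 24.9 FPKM in KO IUB288 livers and 31.5 FPKM in KO Vehicle livers, and at 26.9 FPKM in WT IUB288 livers and 23.7 FPKM in WT Vehicle livers. The log2 differences of Psmd14 were -0.34 ± 0.36 in KO (q = 0.616) and 0.18 ± 0.41 in WT (q = 0.838) in the authors' deposited tables, and KO minus WT was -0.52 ± 0.54, with an adjusted p of 1.00 by the z test over all loci. Psmd11, the lid subunit that protein kinase A phosphorylates, stood at 56.4 FPKM in KO IUB288 livers and 50.9 FPKM in KO Vehicle livers, and at 47.3 FPKM in WT IUB288 livers and 45.7 FPKM in WT Vehicle livers. The RNA of Psmd11 therefore differed from vehicle by 0.15 ± 0.38 (KO) and 0.05 ± 0.42 (WT) log2 units in the authors' deposited tables. The upper ends were Psmd7 in KO, at 0.21 ± 0.35, and Psmd13 in WT, at 0.45 ± 0.39, with q-values of 0.820 and 0.409 in the authors' deposited tables. Psmd6 had the lowest value of the lid in WT, -0.02 ± 0.46 in the authors' deposited table.

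The assembly chaperones, which build the base and the core and leave before the particle is finished, held both the lowest levels and some of the larger differences. Psmg4, a chaperone of the alpha ring, stood at 17.5 FPKM in KO IUB288 livers and 11.3 FPKM in KO Vehicle livers, and at 19.6 FPKM in WT IUB288 livers and 10.7 FPKM in WT Vehicle livers. The log2 differences of Psmg4, 0.63 ± 0.51 in KO (q = 0.433) and 0.88 ± 0.54 in WT (q = 0.170) in the authors' deposited tables, were the highest of all members without passing. Psmd9, a chaperone of the base, stood at 18.7 FPKM in KO IUB288 livers and 13.4 FPKM in KO Vehicle livers, and at 23.6 FPKM in WT IUB288 livers and 16.9 FPKM in WT Vehicle livers. Its log2 differences were 0.48 ± 0.36 in KO and 0.48 ± 0.39 in WT, with q-values of 0.380 and 0.365 in the authors' deposited tables. Psmd5, another base chaperone, had -0.14 ± 0.61 in KO and 0.06 ± 0.71 in WT in the authors' deposited tables. Psmd10, known as gankyrin, ranged only from 6.70 to 7.62 FPKM over the 4 groups. The main Psmg3 locus stood at 10.1 FPKM in KO IUB288 livers and 12.7 FPKM in KO Vehicle livers, and at 10.02 FPKM in WT IUB288 livers and 12.7 FPKM in WT Vehicle livers. Its minor locus was at 0.0294 FPKM in KO IUB288 livers and 0.806 FPKM in KO Vehicle livers, and at 0.00950 FPKM in WT IUB288 livers and 1.02 FPKM in WT Vehicle livers. The errors of the minor locus in the authors' deposited tables, 4.04 log2 units in KO and 7.15 in WT, are as wide as its differences of -4.78 and -6.75, and reads may be split between both loci.

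The activators open the core without the 19S cap. Psme1 and Psme2 form PA28αβ, which interferon induces and which works with the immunoproteasome. Psme1 stood at 97.1 FPKM in KO IUB288 livers and 67.5 FPKM in KO Vehicle livers, and at 109.8 FPKM in WT IUB288 livers and 65.9 FPKM in WT Vehicle livers. Psme2 stood at 59.0 FPKM in KO IUB288 livers and 46.0 FPKM in KO Vehicle livers, and at 71.1 FPKM in WT IUB288 livers and 47.8 FPKM in WT Vehicle livers. For both genes the value with IUB288 was above that with vehicle within each genotype, on the side opposite to Psmb9. The same held for 26 of the 46 members above 5 FPKM, these genes included. The log2 differences were 0.52 ± 0.39 in KO (q = 0.362) and 0.74 ± 0.43 in WT (q = 0.144) for Psme1, and 0.36 ± 0.36 (q = 0.575) and 0.57 ± 0.40 (q = 0.254) for Psme2, in the authors' deposited tables. Psme3, the nuclear PA28γ, had -0.13 ± 0.36 in KO and 0.06 ± 0.40 in WT, and Psme4, the nuclear PA200, had -0.03 ± 0.49 and 0.46 ± 0.61, in the authors' deposited tables. Psmf1, the inhibitor PI31, lay between 8.11 and 8.72 FPKM in the 4 groups. Summed over the activators, the level was 212 FPKM in KO IUB288 livers and 172 FPKM in KO Vehicle livers, and 239 FPKM in WT IUB288 livers and 161 FPKM in WT Vehicle livers. The ratio of 1.48 in WT was the largest of the subcomplexes, that of 1.23 in KO likewise, and no activator passed.

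Between genotypes under IUB288, 0 of 46 tested members were called, where 0.539% of 13918 tested loci were (0.216% lower and 0.323% higher), and 0 members had an unadjusted p under 0.05 or were called with normal p-values. Members were lower in KO in 34 cases and higher in 12 (26.1%), with a median log2 difference of -0.08. Of all tested loci 47.8% were higher in KO, and of loci with at least 10 FPKM 32.3% were. The median over all loci with at least 10 FPKM was -0.097, and centred on that the median of the 46 members was 0.015. The 41 members that reached 10 FPKM in this comparison had a median of -0.092. Psmb10 was the lowest, at 18.2 FPKM in KO IUB288 livers and 24.0 FPKM in WT IUB288 livers on the scale of the genotype table, with a log2 difference of -0.40 ± 0.42 and q = 1.00 in the authors' deposited table. Psmb8 followed the same side, at 18.9 FPKM in KO IUB288 livers and 23.3 FPKM in WT IUB288 livers. Psmd11 was the highest, at 53.6 FPKM in KO IUB288 livers and 44.0 FPKM in WT IUB288 livers, with 0.28 ± 0.42 in the authors' deposited table. Psmb9, the member called with IUB288 in KO, stood at 7.35 FPKM in KO IUB288 livers and 7.93 FPKM in WT IUB288 livers, a log2 difference of -0.11 ± 0.53 in the authors' deposited table. All 7 constitutive beta genes and all 3 immunoproteasome genes had lower values in KO, and Psmd1, at 0.23 ± 0.40 in the authors' deposited table, was among those with higher ones. Of all loci of 60 to 150 FPKM, the range of the beta genes, 24.7% were higher in KO. The share was 33.3% at 20 to 60 FPKM, the range of Psmb8 and Psmb10, and 46.2% at 5 to 20 FPKM, that of Psmb9. Kupffer cell markers differed between these groups as well, summing to 52.3 FPKM in KO IUB288 livers and 129.9 FPKM in WT IUB288 livers over 7 markers. All 7 were lower in KO, each at an unadjusted p under 0.05 in the authors' deposited table. Of these markers Clec4f, Marco and Cd5l passed the threshold, and none was listed at 0. Their part in the differences of the members was not tested. KO against WT under vehicle is not analysed here, because levels of the vehicle groups come from tables scaled separately.

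The IUB288 effect was smaller in KO than in WT, on the signed log2 scale, for 42 of 46 members above 5 FPKM. None of these differences passed. The share of all loci on that side was not computed, so the count cannot be read as particular to the members. Over all loci 0.104% of 13521 passed the z test, 0 of 47 members did, 0 members had an unadjusted p under 0.05, and errors taken from the authors' p-values gave 0 members as well. The median of KO minus WT was -0.21 over members and -0.04 over all tested loci. The WT shift of well expressed loci described above, 0.22 against 0.08 in KO, moves in the same direction, and its part in the members' shift was not tested.

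Within a group, the median level of the constitutive beta genes, the alpha genes, the ATPases and the lid came in that order in all 4 groups, while the other base subunits, the activators and the chaperone classes changed places between groups. The constitutive beta genes were the highest, with medians of 103 FPKM in KO IUB288 livers, 96.9 FPKM in KO Vehicle livers, 117 FPKM in WT IUB288 livers and 97.1 FPKM in WT Vehicle livers. Their levels were close together, with a coefficient of variation across the 7 genes between 9.57% and 14.7%. The alpha genes followed at medians of 70.3 to 81.3 FPKM, with Psma5 the lowest of the ring in every group at 32.7 to 36.4 FPKM. The ATPases had medians of 52.4 to 67.3 FPKM and the lid 43.2 to 49.7 FPKM, with Psmd14 the lowest of the lid and Psmd8 the highest in every group. The immunoproteasome genes, the chaperones and the inhibitor stayed under 26 FPKM in every group. Differences between neighbours in this order carry no error over mice, since each value is pooled.

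**Figure D4:**
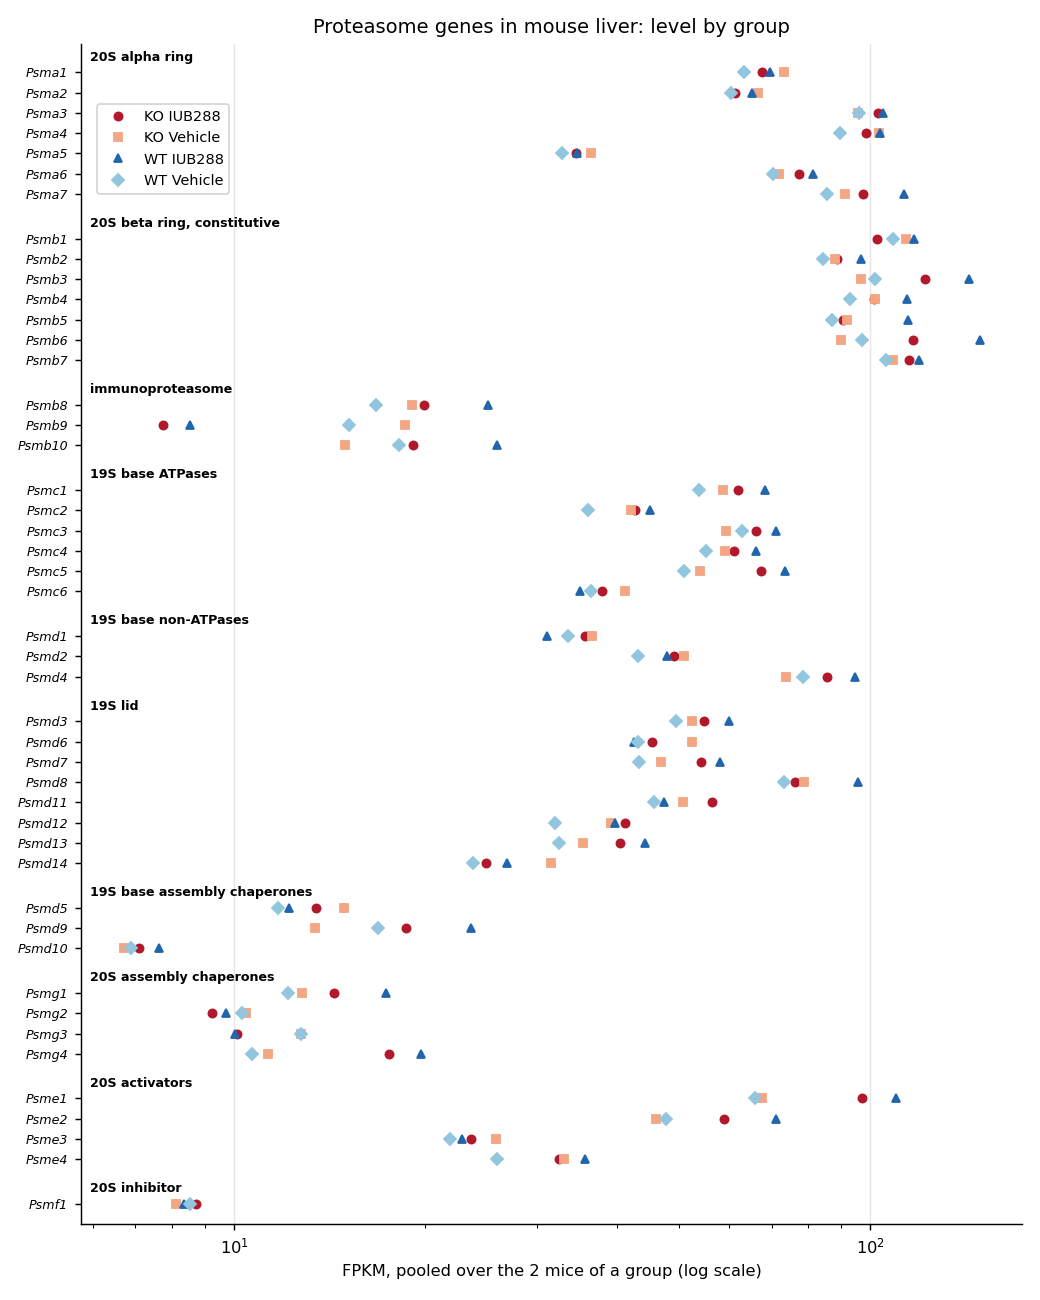
Pooled FPKM (log scale) of the 46 members above 5 FPKM in the 4 groups of 2 mice, 1 symbol per group, arranged by subcomplex. The beta genes lie near 100 FPKM together, the assembly chaperones lie between 6.70 and 23.6 FPKM, and the symbols of Psmb9 lie at 7.73 and 8.54 FPKM with IUB288 and at 18.6 and 15.2 FPKM with vehicle.

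Among the genes that control and serve the proteasome, 1 of 11 regulators was called in WT, where 7.37% of all tested loci were. Nfe2l1, whose protein induces proteasome genes when the proteasome is impaired, stood at 33.3 FPKM in KO IUB288 livers and 32.0 FPKM in KO Vehicle livers, and at 36.5 FPKM in WT IUB288 livers and 31.3 FPKM in WT Vehicle livers. Nfe2l2, its relative in the oxidant response, stood at 36.6 FPKM in KO IUB288 livers and 36.4 FPKM in KO Vehicle livers, and at 27.8 FPKM in WT IUB288 livers and 29.0 FPKM in WT Vehicle livers. Neither regulator passed. The called regulator, Mafk, a small MAF partner of these factors, fell to 3.56 FPKM in WT IUB288 livers against 9.33 FPKM in WT Vehicle livers, where the authors' deposited table lists q = 0.025. Mafk stood at 3.74 FPKM in KO IUB288 livers and 5.87 FPKM in KO Vehicle livers, where the authors' deposited table lists q = 0.442. Pomp, the chaperone that matures the beta ring, stood at 144 FPKM in KO IUB288 livers and 133 FPKM in KO Vehicle livers, and at 171 FPKM in WT IUB288 livers and 130.4 FPKM in WT Vehicle livers. Among 13 partners of the 26S particle, Pomp included, 12 targets of NFE2L2 (10 of them tested), 6 ubiquitin and E1 genes and 12 genes of p97 and its cofactors, 0 passed in any of the 3 comparisons. At an unadjusted p under 0.05, the share of all tested loci was 17.4% in WT and 14.6% in KO. In WT there stood 1 of the partners, 1 of the NFE2L2 targets, 3 of the ubiquitin genes and 2 of the p97 genes, and in KO 2 of the p97 genes and 0 of the others. Between genotypes the count was 0 in each list.

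Some member values are less certain than others for reasons of position or sequence. Of the member loci, 20 overlap another annotated gene and 27 overlap none. The Psma6 locus spans 211834 bases and takes in 4 other genes, Nfkbia among them, and the Psme1 locus runs into Emc9 on the opposite strand. Processed pseudogenes are annotated for Psma5, Psmb5, Psmb6 and Psmb7, and Psme2 has a near copy, Psme2b, so reads of these genes may have been divided. Across the 46 members, exonic length and the log2 difference had a Spearman's rho of -0.26 in KO and -0.39 in WT, against -0.17 and -0.25 over loci of 5 to 150 FPKM.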

How the data were processed

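RNA was measured in liver of 8 mice, TRIzol-extracted and made into TruSeq libraries per the labels' protocols. The submitters' processing notes name TopHat2 2.0.12 with Bowtie2 2.2.3, Cufflinks 2.2.1, Cuffdiff without a version, Trim Galore 0.4.0 and bcl2fastq 1.8.4, and the builds mm10 and hg19. Coordinates are mm10, counted from 1. The authors deposited, per comparison, 1 table of pooled FPKM values, log2 fold changes, test statistics (a score with no fixed range), p-values and q-values. No depth and no value per mouse was given, so no interval of counting error was computed. Samples were grouped by title.

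A locus counts as called where the authors list status OK with q under 0.05, and 5e-05 is the smallest p-value in the tables. Standard errors are the log2 fold change over the test statistic, and 95% intervals use 1.96 of them. The labels name single mice and do not say how litters, cages or diets were spread over groups. The p-values are those of the authors' test on 2 mice per group. Without values per mouse, how far they reflect the spread between mice cannot be checked here. KO minus WT was tested by a z test on these errors, Benjamini-Hochberg adjusted over all loci. The code of this step was run on simulated data with normal errors and planted differences larger than those of any member. That run does not show how the test behaves for differences as small as the members'. Lists are described by counts and medians beside those of all loci, and 1 gene of the antigen processing list is not reported here. Members and lists were chosen with earlier results of these data known. By rule, full values are given for called members, Psmb5 to Psmb10 and the highest and lowest of each subcomplex, for up to 3 called genes per list, and always for Nfe2l1, Nfe2l2 and Pomp. Promoters are RefSeq windows of GRCm38.p6. Alternatives were other q thresholds, normal p-values, other FPKM minimums, centred fold changes, a pseudocount of 1 and other errors. Python 3.11.15, numpy 2.4.6, pandas 2.3.3, scipy 1.17.1 and matplotlib 3.10.9 were used.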

Additional observations from a re-analysis of the deposited data

How the results depend on the processing

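With fold changes centred on the median of loci with at least 10 FPKM, the median over all tested members changed sign in all 3 comparisons. It became -0.016 for IUB288 in KO, -0.0061 for IUB288 in WT and 0.015 for KO under IUB288. The median of those loci, 0.08, 0.22 and -0.10, is what the centring subtracts. The members' median here includes members under 10 FPKM. In WT the 44 members that reached 10 FPKM had 0.27 against 0.22, so the sign there depends on the set of members. With normal p-values from the test statistics, 0 members were called lower in KO in place of 1, and the adjusted p of Psmb9 was 0.181, and the cause was not tested. Among single genes, the sign of values that had not passed changed for Psmb8 in KO (-0.016) and Psmb7 in WT (-0.047) when centred on loci of at least 10 FPKM, and for Psmb7 between genotypes when centred on these loci (0.077) or on loci of at least 1 FPKM (0.0020). In the other 80 recomputations of counts, medians and sums, and in the other 184 of single genes, direction and side of the threshold were kept. Some of these could not change. No member locus carries several symbols, so leaving such loci out removed nothing, and other q thresholds or p-values leave a gene's direction as it is. Centring on loci of 5 to 150 FPKM was added after seeing the data. It gave members' medians of 0.046 for IUB288 in KO, 0.084 for IUB288 in WT and -0.031 for KO under IUB288, without a change of sign. No paired analysis was possible because the labels give no replicate numbers shared between groups and the tables hold pooled values, and for the same reason no mouse could be left out. With 2 mice per group, the smallest difference called among loci of 5 to 150 FPKM was 0.73 (KO) or 0.81 (WT) log2 units, while members beyond it in WT, Psmg4 at 0.88 and Psmb9 at -0.83, were not called, and no power was computed.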
